A study of Homo sapiens with 6 samples.

Results

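Titin and 9 proteins of the cardiac Z-disc were followed in heart muscle cells differentiated from WTC11, an established line of human induced pluripotent stem cells. The 10 genes were TTN, ACTN2, CSRP3, TCAP, LDB3, MYOZ2, NEXN, MYPN, FLNC and NEBL. They were chosen by name for their place in the sarcomere, with earlier results of these data known. Each of the 10 symbols was found among the 38557 genes listed in the count files. The cells were labelled WT and had been kept in either RPMI plus B27, a basal medium with a serum-free supplement, or DMEM plus fatty acids. A stranded mRNA kit was used for RNA sequencing of replicates labelled biological, 3 for either medium, with the numbers 1 to 3 used in both. What else the media contained and how old the cells were are not stated in the labels, and all 6 libraries come from a single line.

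The Z-disc is the boundary of the sarcomere, the contractile unit of muscle, and anchors the barbed ends of the thin actin filaments from both sides. Alpha-actinin crosslinks these filaments there. Titin is a giant elastic protein that spans from the Z-disc to the middle of the sarcomere and acts as a spring and a scaffold. Around these lie adaptors that tie the Z-disc to signalling proteins, to the cell membrane and to neighbouring myofibrils, and variants in many of them cause inherited cardiomyopathy.

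The 6 libraries held 23232324 to 31035389 gene counts, and each of the 10 genes had at least 621 counts in each library. The cultures expressed the 13 genes listed as cardiomyocyte markers, at a summed level of 39892 to 47178 CPM (gene counts per library, scaled to the same total) in RPMI plus B27 and 27171 to 42782 CPM in DMEM plus fatty acids. Fibroblast and stromal markers (12 genes) summed to 4348 to 8482 CPM in RPMI plus B27 and 761 to 1960 CPM in DMEM plus fatty acids. None of the 12 was at 0 in all 6 libraries, but DCN had 0 counts in replicate 1 of DMEM plus fatty acids. Smooth muscle markers (8 genes) summed to 1867 to 2497 CPM and 494 to 1347 CPM, with none at 0 in any library. Both lists were thus lower in every DMEM plus fatty acids library than in any RPMI plus B27 library. Of 9 skeletal muscle markers, MYOD1 and MYF5, the factors that define that lineage, had 0 counts in all 6 libraries. That list's summed level of 412 to 547 CPM and 662 to 920 CPM was nearly all CKM, which heart muscle also makes. Epicardial markers (6 genes) summed to 104 to 291 CPM and 42.7 to 87.2 CPM, endothelial markers (7 genes) to 30.4 to 239.7 CPM and 115 to 463 CPM, and pluripotency markers (4 genes) to 0.638 to 1.69 CPM and 0.301 to 0.80 CPM. The endothelial sum was nearly all KDR, while the endothelial markers CDH5 and ERG had 0 counts in every DMEM plus fatty acids library. In RPMI plus B27 both were also low, with 11, 8 and 1 counts for CDH5 and 8, 2 and 1 for ERG. PECAM1 had 0 to 5 counts per library and VWF 0 to 3. CDH5, ERG, PECAM1 and VWF had too few counts to be tested. TEK and TIE1 had log2 fold changes of -2.13 and -0.97 (edgeR adjusted p 0.0960 and 0.389), so the sum does not stand for the list. In bulk RNA, fewer cells of a type and less RNA per cell cannot be told apart, and this holds for every comparison that follows.

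Promoter sequences were available in RefSeq (GRCh38.p14) for 8 of the 10 genes, and the 250 bases before the annotated start were read on the gene's strand. CSRP3 and TCAP are the other two. Windows are shown for ACTN2 and NEXN, whose levels did not overlap between media, and for TTN, LDB3 and MYOZ2, whose windows hold a binding motif of SRF or MEF2, transcription factors that drive many sarcomere genes. Capitals mark matches to 5 motifs searched on both strands. They were the SRF box (known as the CArG box), the MEF2 box and the MCAT element, spelled CATTCC, the site of TEAD factors. The motif of the cardiac GATA factors was searched as AGATAA. Its other form, TGATAA, was counted with it. The last was the TATA box of core promoters, searched with the letters TATAAA. No matches of different motifs overlapped in these windows.
ACTN2, chr1:236686249-236686498, plus strand: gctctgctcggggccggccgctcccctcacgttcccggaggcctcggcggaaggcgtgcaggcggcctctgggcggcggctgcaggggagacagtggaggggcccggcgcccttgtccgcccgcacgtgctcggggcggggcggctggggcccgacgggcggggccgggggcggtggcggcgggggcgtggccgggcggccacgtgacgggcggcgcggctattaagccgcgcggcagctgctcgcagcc
NEXN, chr1:77888374-77888623, plus strand: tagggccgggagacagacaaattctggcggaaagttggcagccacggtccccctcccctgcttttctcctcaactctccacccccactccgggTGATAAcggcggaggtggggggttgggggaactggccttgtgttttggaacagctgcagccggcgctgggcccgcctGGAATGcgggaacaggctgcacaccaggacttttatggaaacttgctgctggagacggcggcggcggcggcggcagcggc
TTN, chr2:178807424-178807673, minus strand: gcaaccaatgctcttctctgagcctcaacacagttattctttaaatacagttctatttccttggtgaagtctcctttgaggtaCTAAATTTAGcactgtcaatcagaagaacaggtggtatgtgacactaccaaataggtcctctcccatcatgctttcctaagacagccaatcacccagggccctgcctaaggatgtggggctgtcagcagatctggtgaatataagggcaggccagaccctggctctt
LDB3, chr10:86668261-86668510, plus strand: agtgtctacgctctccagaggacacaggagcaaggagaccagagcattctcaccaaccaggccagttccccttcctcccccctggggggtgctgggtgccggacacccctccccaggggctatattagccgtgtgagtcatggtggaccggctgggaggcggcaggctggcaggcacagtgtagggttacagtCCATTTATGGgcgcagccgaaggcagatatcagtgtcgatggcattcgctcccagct
MYOZ2, chr4:119135582-119135831, plus strand: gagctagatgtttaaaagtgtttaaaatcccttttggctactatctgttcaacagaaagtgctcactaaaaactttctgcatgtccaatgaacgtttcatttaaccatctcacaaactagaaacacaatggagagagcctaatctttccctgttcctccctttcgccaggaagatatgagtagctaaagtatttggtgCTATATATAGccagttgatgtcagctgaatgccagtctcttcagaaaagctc
The TTN and MYOZ2 windows each hold 1 MEF2 box, which lies 167 to 158 bases before the start of TTN and 52 to 43 bases before that of MYOZ2. The MEF2 box occurs in 2.80% of all 35116 promoter windows of this length. The LDB3 window holds 1 SRF box, found in 1.16% of all windows, at 57 to 48 bases before the start. The TTN window precedes a RefSeq start that lies inside the GENCODE v29 span of the gene. A second annotated start of LDB3 contains the same box. The NEXN window holds a GATA match (in 14.6% of all windows) and an MCAT match (in 11.9%), and the ACTN2 window, with a GC content of 81.6%, holds none of the 5. FLNC had 1 MCAT match, MYPN had 2 MCAT matches and 1 TATA match (in 10.7% of all windows), and of 5 annotated starts of NEBL only 1 had a match, with 2 GATA motifs. A match is a description of the letters and not of a bound factor.

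Between media, ACTN2 and CSRP3 showed the largest differences among the 10 genes, both lower in DMEM plus fatty acids, and 6 of the 10 had log2 fold changes of -0.19 to 0.27. None of the 10 passed at an adjusted p under 0.05 with medium as the only term (edgeR quasi-likelihood test), where 1.36% of the 16107 genes tested passed (1.07% as lower). Without adjustment 3 of the 10 had a p under 0.05, all lower, where 17.7% of all genes did, 9.98% as lower. When the fit was blocked by replicate number, CSRP3 and ACTN2 passed, both lower in DMEM plus fatty acids, against a background of 4.77% of genes (3.41% in the lower direction). The DESeq2 Wald test without a block called the same 2 genes, against 7.52% of all genes. The libraries of the media did not overlap for ACTN2, CSRP3 and NEXN, all lower in DMEM plus fatty acids, a pattern seen in 12.8% of all genes, or 25.6% counting both directions. The log2 fold change, DMEM plus fatty acids relative to RPMI plus B27, was negative for 7 of the 10 genes, with a median of -0.16 (range -1.33 to 0.27), beside a median of 0.01 over all genes tested. In all 3 numbered pairs, 4 genes (ACTN2, CSRP3, TCAP and NEXN) were lower in DMEM plus fatty acids and 0 were higher, while 23.7% and 25.8% of all genes did so, 49.5% in all.

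**Figure D1:**
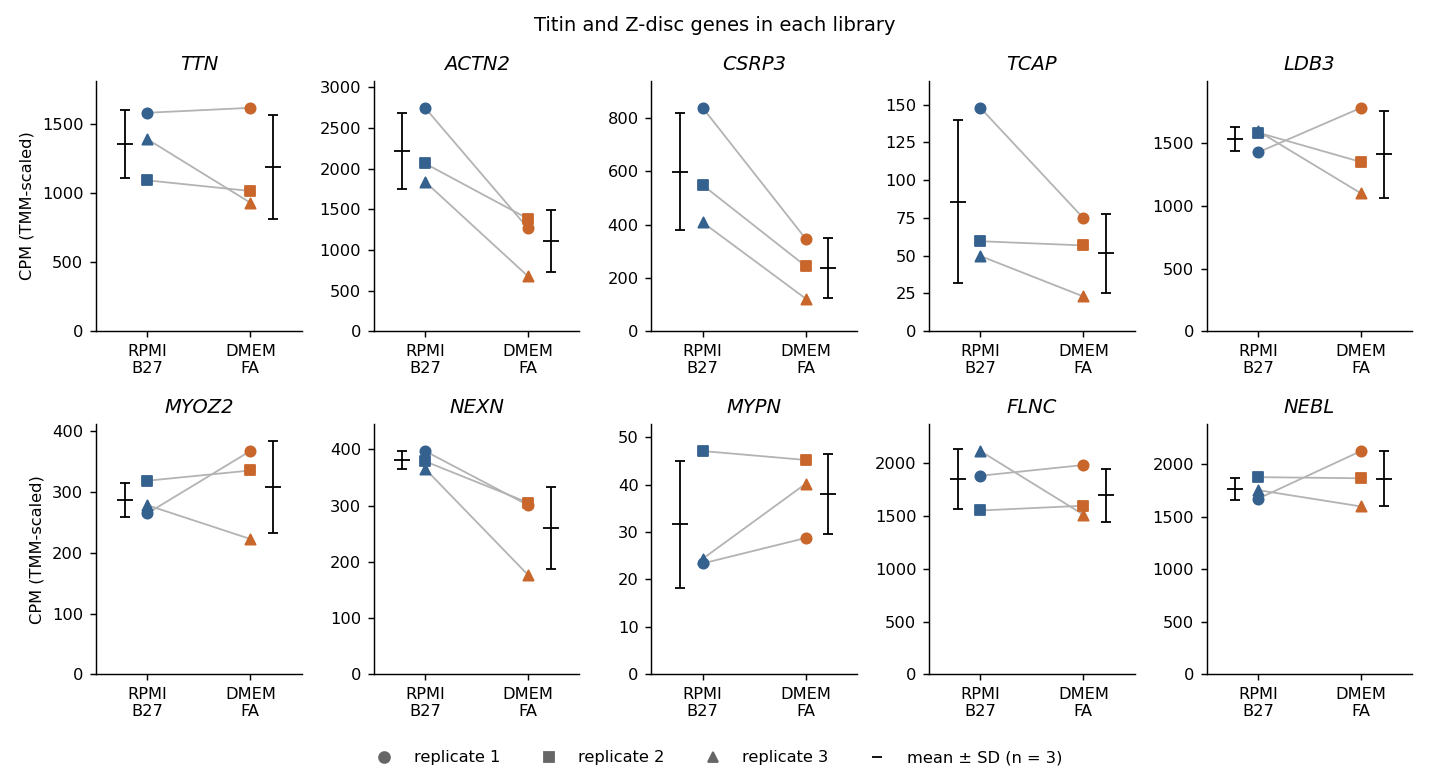
Level of each gene in CPM scaled by TMM (vertical axis, from 0) in the 3 libraries of each medium, with grey lines joining libraries of the same replicate number and bars giving the mean ± SD (n = 3). ACTN2, CSRP3 and NEXN have no overlap between media, and replicate 3 of DMEM plus fatty acids is the lowest of the 6 libraries for 9 of the 10 genes.

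ACTN2 encodes the muscle alpha-actinin that crosslinks actin filaments at the Z-disc (chromosome 1, 236686454 to 236764631, plus strand, GRCh38 with GENCODE v29). Its TMM-scaled level was 2747, 2063 and 1839 CPM in RPMI plus B27 (replicates 1 to 3) and 1266, 1383 and 676 CPM in DMEM plus fatty acids. Every RPMI plus B27 library was above every DMEM plus fatty acids library. The means were 2216 ± 473 and 1109 ± 379 CPM (SD, n = 3 each), a log2 fold change of -1.0 ± 0.30 (SE) with an edgeR adjusted p of 0.155. Blocked by replicate number, the log2 fold change was -1.05 ± 0.21 and the adjusted p 0.0494, close to the threshold. The adjusted p was 0.0888 and 0.0646 when pair 2 or pair 3 was left out of that fit, and 0.00899 without pair 1. Of the 16107 genes tested, the full blocked fit called 769. Without pair 1, 2 or 3 the blocked fits called 1887, 425 and 895. Within pairs the log2 differences of ACTN2 were -1.12, -0.58 and -1.44, so the size varied between pairs while the direction did not.

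CSRP3 encodes muscle LIM protein, an adaptor that binds alpha-actinin and telethonin and is linked to mechanical signalling at the Z-disc (chromosome 11, 19182037 to 19210571, minus strand). It stood at 839, 548 and 408 CPM in RPMI plus B27 and at 347, 244 and 122 CPM in DMEM plus fatty acids. The lowest RPMI plus B27 library was above the highest DMEM plus fatty acids library, and replicate 1 was the highest and replicate 3 the lowest in both media. The means were 599 ± 219 and 238 ± 113 CPM (SD, n = 3 each), or 2.52-fold lower in DMEM plus fatty acids. The log2 fold change was -1.33 ± 0.41 with an edgeR adjusted p of 0.161, and with the block -1.39 ± 0.15 with 0.0142. The pairs differed by -1.27, -1.17 and -1.74 on the log2 scale. CSRP3 kept its call in each of the 3 blocked fits that left out 1 pair (adjusted p 8.13e-05 to 0.0125). The lowest of these came from the fit without pair 1, which called 1887 of the 16107 genes tested. The cardiomyocyte marker sum was also lowest in replicate 3 of DMEM plus fatty acids (27171 CPM, against 39353 to 47178 CPM in the other 5 libraries), and its part in the result was not tested. The sum does not stand for each of its 13 genes, since 5 had a positive and 8 a negative log2 fold change between media. That library held the lowest value of TNNT2, TNNC1, MYH7, MYL3, MYL4, MYL7, RYR2 and ACTC1 (1417 CPM). It did not hold that of TNNI3, TNNI1, PLN, NKX2-5 or MYH6 (8571 CPM, above every RPMI plus B27 library). Without that library the log2 fold changes of ACTN2 and CSRP3 were -0.74 and -1.02, with edgeR adjusted p values of 0.184 and 0.211. Leaving out replicate 1 of RPMI plus B27, the highest library for both, gave -0.82 and -1.01.

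NEXN and TCAP were lower in each pair but were not called. NEXN (nexilin, an actin-binding protein that holds filaments at the Z-disc and at junctional membranes, chromosome 1, 77888513 to 77943895, plus strand) had 397, 379 and 365 CPM in RPMI plus B27, a narrow range. In DMEM plus fatty acids it had 301, 305 and 177 CPM, with replicate 3 well below the other two. Its log2 fold change was -0.54 ± 0.21 with an edgeR adjusted p of 0.248, and 0.113 with the block, where it passed only without pair 1 (0.0201). That fit called 1887 of the 16107 genes tested. Without DMEM plus fatty acids replicate 3 the log2 fold change of NEXN was -0.33. TCAP encodes telethonin, a small protein that clamps the ends of a pair of titin molecules together in the Z-disc (chromosome 17, 39664187 to 39666555, plus strand). Its level was 148, 59.6 and 49.8 CPM in RPMI plus B27 and 74.9, 56.8 and 23.0 CPM in DMEM plus fatty acids, so the media overlapped and replicate 1 of RPMI plus B27 stood apart at more than the sum of the other two. The log2 fold change of -0.74 ± 0.52 (edgeR adjusted p 0.509, with the block 0.114) was -0.09 without that library. In the blocked fit TCAP passed only without pair 2 (0.0205), the pair in which it differed by -0.07 on the log2 scale, against -0.98 and -1.11 in the others. The blocked fit without pair 2 called 425 of all genes tested.

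TTN itself did not differ beyond the spread of its libraries. It had 1583, 1093 and 1391 CPM in RPMI plus B27 and 1619, 1016 and 931 CPM in DMEM plus fatty acids, and the highest of the 6 values was in DMEM plus fatty acids. The log2 fold change was -0.19 ± 0.25 with an edgeR adjusted p of 0.739 (0.263 to 0.953 over 17 alternatives), and the pairs differed by 0.03, -0.11 and -0.58. With 1 library left out the log2 fold change ran from -0.48 (without DMEM plus fatty acids replicate 1) to -0.04 (without replicate 3 of that medium). It was -0.32 and -0.06 without RPMI plus B27 replicates 2 and 1, and -0.09 without DMEM plus fatty acids replicate 2. TTN lies on chromosome 2 (178525989 to 178830802, minus strand), and 15.5% of its exonic bases in GENCODE v29 lie under exons of genes on the opposite strand, of which TTN-AS1 covers the most, 9.57%. Of these opposite-strand genes only TTN-AS1 was listed in the count files, with 0 to 2 counts per library. Antisense genes also lie over 5.57% of the exonic bases of NEXN (NEXN-AS1, 17 to 36 counts per library), 0.733% of FLNC and 0.688% of NEBL. Since the strand setting of the counting is not stated, reads of a gene and of its antisense partner cannot be told apart there. Where both genes were part of the counting, reads in such stretches may have been counted for neither. That would lower the TTN counts, its level per kb and the denominator of the ratios to TTN. How many were lost was not tested. Counts per gene also do not separate the long and short cardiac isoforms of titin.

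The remaining Z-disc genes likewise had overlapping media. LDB3 (Cypher or ZASP, a PDZ and LIM domain protein that binds alpha-actinin, chromosome 10, 86668449 to 86736068, plus strand) had 1427, 1585 and 1597 CPM in RPMI plus B27 and 1782, 1350.5 and 1100.1 CPM in DMEM plus fatty acids. The DMEM plus fatty acids libraries lay on both sides of the RPMI plus B27 range, with replicate 1 above it and replicates 2 and 3 below. MYOZ2 (calsarcin-1, which links alpha-actinin to calcineurin, chromosome 4, 119135784 to 119187789, plus strand) had 265, 318 and 278 CPM and then 367, 335 and 222 CPM. Here too the order within DMEM plus fatty acids was replicate 1 above 2 above 3, and the log2 fold change was small (0.10 ± 0.20, edgeR adjusted p 0.824). FLNC (filamin C, the muscle filamin, which ties Z-discs to the membrane, chromosome 7, 128830377 to 128859274, plus strand) had 1877, 1549 and 2111 CPM and then 1979, 1594 and 1510.2 CPM. Replicate 3 was the highest for FLNC in RPMI plus B27 and the lowest in DMEM plus fatty acids. NEBL (nebulette, which runs along the thin filament at the Z-disc, chromosome 10, 20779973 to 21174187, minus strand) had 1669, 1874 and 1751 CPM and then 2122, 1863 and 1596 CPM. NEBL had the smallest spread of the 10 over the 6 libraries, an SD of 0.15 on the log2 scale, where CSRP3 had 0.96. MYPN (myopalladin, which joins nebulette to alpha-actinin, chromosome 10, 68106117 to 68212017, plus strand) had 23.4, 47.1 and 24.4 CPM and then 28.7, 45.2 and 40.2 CPM. Replicate 2 was the highest for MYPN in both media. The log2 fold changes were -0.12 ± 0.20 for LDB3, -0.12 ± 0.19 for FLNC, 0.08 ± 0.16 for NEBL and 0.27 ± 0.30 for MYPN, with edgeR adjusted p values of 0.691 to 0.848 for these 4. With 1 library left out the MYPN value ran from 0.09 (without RPMI plus B27 replicate 1) to 0.67 (without replicate 2 of that medium), and 5 of the 6 such fits moved it by more than 1.5 times. MYPN was the exception to the order of the DMEM plus fatty acids libraries, since its lowest value there was in replicate 1.

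**Figure D2:**
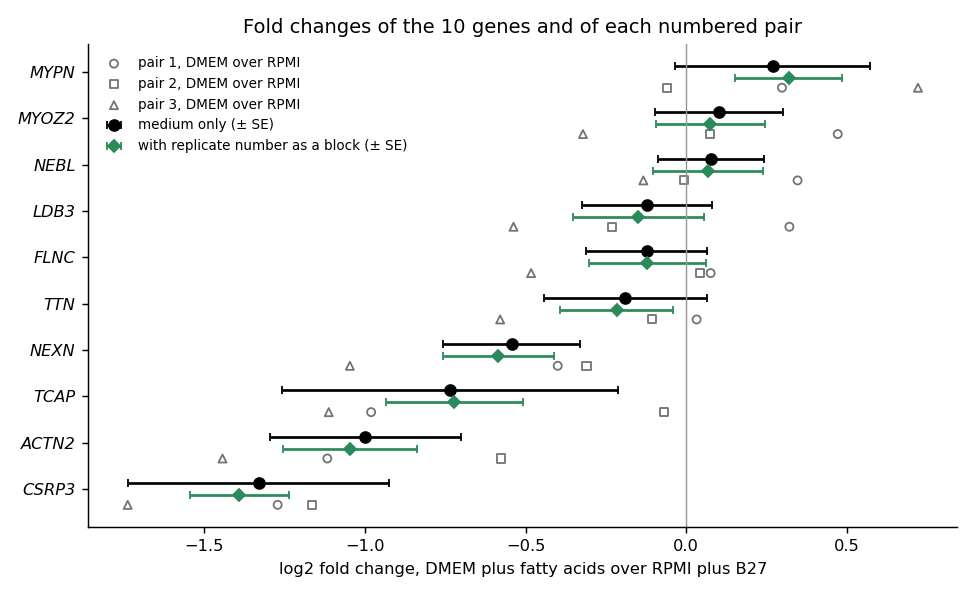
Log2 fold change of each gene (horizontal axis), for DMEM plus fatty acids relative to RPMI plus B27, from the fit with medium only and the fit blocked by replicate number (bars, ± SE), with the difference within each numbered pair as open symbols. CSRP3 and ACTN2 lie farthest to the left at -1.33 and -1.0, and pair 3 gives the lowest difference for 9 of the 10 genes.

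Replicate 3 of DMEM plus fatty acids was the lowest of the 6 libraries for 9 of the 10 genes, while it was the lowest for 14.3% of all genes tested. With scaling by total counts alone it was the lowest for 7 of the 10 and for 7.57% of all genes. In TMM-scaled CPM the trait was shared by cardiomyocyte markers. TNNT2, MYH7 and ACTC1 were among those lowest in that library, and TNNI3 and MYH6 among those that were not. The 10 genes together took 0.696% of the gene counts in that library, 0.842% and 0.989% in replicates 2 and 1 of the same medium, and 0.931% to 1.04% in RPMI plus B27. The share in replicate 1 of DMEM plus fatty acids thus lay within the RPMI plus B27 range. Without replicate 3 of DMEM plus fatty acids, the median log2 fold change of the 10 genes was -0.04, and 6 were negative.

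The mRNA levels were also compared per kilobase of exon (union of GENCODE v29 exons). The means of the 10 genes ran from 4.48 to 401 CPM per kb in RPMI plus B27. For DMEM plus fatty acids they ran from 5.39 to 211 CPM per kb. In RPMI plus B27, ACTN2 led with 401 ± 85.6 CPM per kb and CSRP3 followed with 365 ± 134 (SD, n = 3), and the ranges of these 2 overlapped. LDB3 (230.1 ± 14.2) and FLNC (199 ± 30.4) came next and overlapped each other, then NEBL (129 ± 7.56) and MYOZ2 (110.5 ± 10.7), which also overlapped. NEXN (85.7 ± 3.56), TCAP (40.4 ± 25.4), TTN (11.4 ± 2.08) and MYPN (4.48 ± 1.90) followed, each without overlap with the next. In DMEM plus fatty acids the first 6 formed a run in which each range overlapped the next, LDB3 at 211 ± 51.7, ACTN2 at 200.5 ± 68.6, FLNC at 183 ± 26.9, CSRP3 at 145 ± 68.7, NEBL at 136 ± 19.3 and MYOZ2 at 119 ± 29.2 CPM per kb. NEXN, TCAP, TTN and MYPN were the last 4 there as well, with TCAP and TTN overlapping. The exons of TTN add up to 119 kb, and annotated exons that these cells do not use, as well as any reads not counted under antisense exons, lower this measure.

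**Figure D3:**
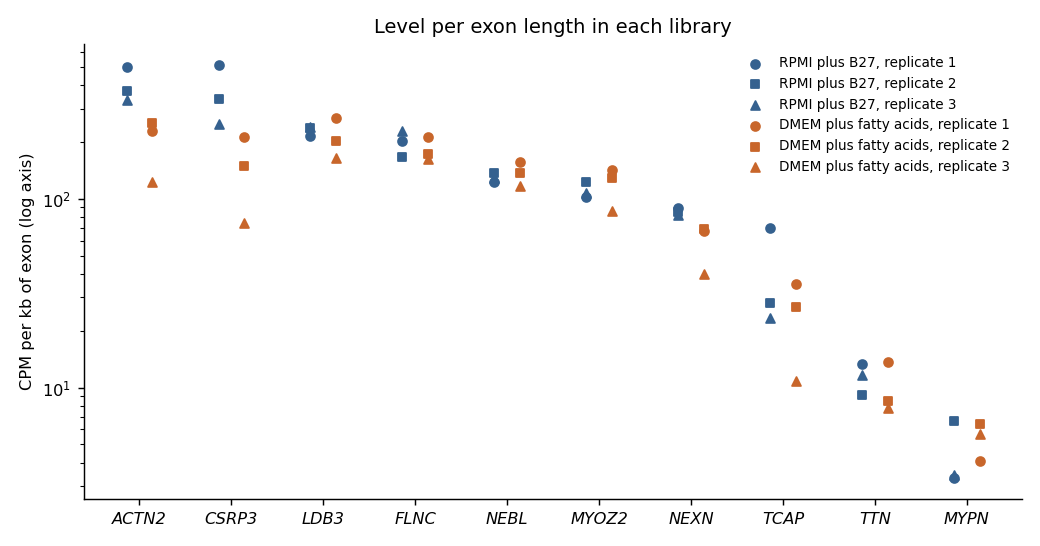
CPM per kb of exon (vertical axis, log scale) for each gene in each of the 6 libraries, ordered by the mean in RPMI plus B27. ACTN2 and CSRP3 are the highest in RPMI plus B27, at 401 and 365, and lie among LDB3, FLNC, NEBL and MYOZ2 in DMEM plus fatty acids.

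Ratios within a library need no scaling between libraries, so each gene was also set against TTN. The log2 ratio of CSRP3 to TTN counts was -0.92, -0.99 and -1.77 in RPMI plus B27 and -2.22, -2.06 and -2.93 in DMEM plus fatty acids, with no overlap. The ratio differed by -1.30, -1.06 and -1.16 in pairs 1 to 3, a narrower range than that of the pair differences in its own level. The difference of the means was -1.17, with a two-sided exact permutation p of 0.1, the smallest that 3 against 3 libraries allow, and 0.54 after adjustment over the 9 ratios. For ACTN2 the log2 ratio to TTN went from 0.70 ± 0.27 to -0.12 ± 0.50 (SD, n = 3 each, exact permutation p 0.2, adjusted 0.54). The media overlapped here, because replicate 2 of DMEM plus fatty acids (0.45) was above replicate 3 of RPMI plus B27 (0.40). For the other 7 genes the difference ran from -0.50 (TCAP) to 0.54 (MYPN), and the media overlapped for all 7. With 1 library left out, the TCAP difference ran from -0.84 (without RPMI plus B27 replicate 3) to -0.14 (without RPMI plus B27 replicate 1) and that of MYPN from 0.24 (without RPMI plus B27 replicate 1) to 1.01 (without RPMI plus B27 replicate 2). The smallest differences were those of LDB3 (0.07) and FLNC (0.10), and adjusted p values over the 9 ratios were 0.54 or above.

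ACTN2 and CSRP3 have close relatives that are broadly expressed or belong to smooth muscle, and their share of the family's counts was taken in each library. These shares are not adjusted for exon length, so they do not compare the levels of the genes within a family. The exons of CSRP3 add up to 1.64 kb, those of CSRP1 to 10.3 kb and those of CSRP2 to 5.87 kb. Per kb of exon, their means in RPMI plus B27 were 365, 21.5 and 36.5 CPM. ACTN2 made up 69.5%, 70.4% and 63.8% of the alpha-actinin counts (ACTN1, ACTN2 and ACTN4) in RPMI plus B27 and 77.0%, 70.1% and 56.1% in DMEM plus fatty acids. The mean share was nearly equal, 67.9% and 67.7%, while the pairs went by 7.51, -0.29 and -7.72 points (exact permutation p 0.9, adjusted 0.9). ACTN1, the form of non-muscle cells, had 716 and 307 CPM (log2 fold change -1.22 ± 0.25, edgeR adjusted p 0.0657), and ACTN4 322 and 192 CPM (-0.75 ± 0.18, 0.101). CAPN12, on the opposite strand, overlaps 14.2% of the exonic bases of ACTN4. CSRP3 made up 65.7%, 56.9% and 47.2% of the CSRP counts (CSRP1, CSRP2 and CSRP3) in RPMI plus B27 and 63.9%, 46.7% and 36.3% in DMEM plus fatty acids, lower in each pair but with overlap (exact permutation p 0.4, adjusted 0.6). CSRP1, a smooth muscle LIM protein, fell from 222 to 71.9 CPM (-1.63 ± 0.29, edgeR adjusted p 0.0492), and CSRP2 went from 215 to 158 CPM (-0.44 ± 0.11, 0.109). FLNA, a broadly expressed relative of FLNC, had 789 and 482 CPM (-0.71 ± 0.18, edgeR adjusted p 0.108), and passed as lower with the block (0.0438). The stromal and smooth muscle marker sums were lower in the same libraries, and their part in these values was not tested.

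**Figure D4:**
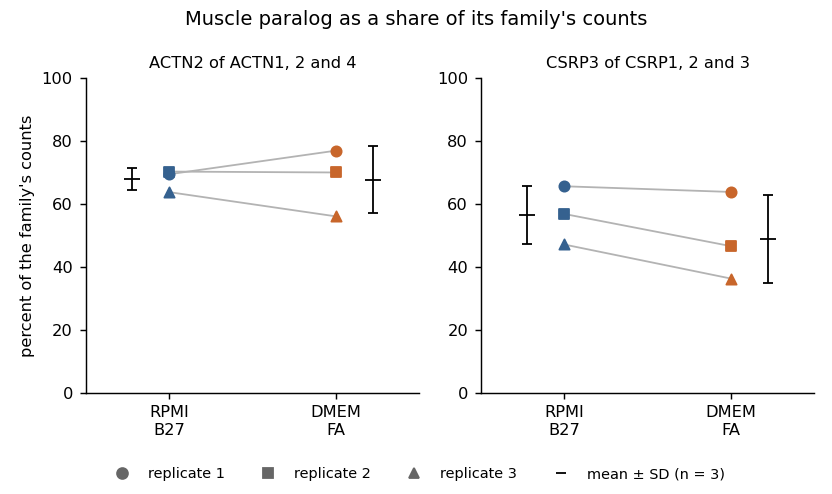
Percent of each family's counts that came from the muscle gene (vertical axis, 0 to 100) in each library, joined by replicate number, with the mean ± SD (n = 3). The media overlap for both genes, and replicate 3 of DMEM plus fatty acids has the lowest share for ACTN2 (56.1%) and CSRP3 (36.3%).

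Other genes of the Z-disc and of titin's surroundings were taken as lists. Of 21 tested further Z-disc proteins, 1 passed without the block, LMCD1 (a LIM domain cofactor that restrains GATA6), which fell from 27.5 to 8.20 CPM (log2 fold change -1.75 ± 0.22, edgeR adjusted p 0.0292). With the block 5 passed, all lower, namely LMCD1, MYOZ1, PDLIM1, PDLIM3 and PDLIM7, and DESeq2 also called 5, of which 3 (LMCD1, MYOZ1 and PDLIM3) were shared. Over all genes tested, 1.36% passed without the block, 4.77% with it and 7.52% with DESeq2. PDLIM3, an alpha-actinin-binding LIM protein, had the largest difference of the list, with 353, 249 and 115 CPM in RPMI plus B27 and 36.5, 73.7 and 25.8 CPM in DMEM plus fatty acids (-2.40 ± 0.51, edgeR adjusted p 0.0755 and with the block 0.0186). MYOZ1, the calsarcin of fast skeletal muscle, had 8.80 and 2.90 CPM (-1.60 ± 0.35, 0.0826 and 0.0436), and PDLIM4 had -1.84 ± 0.46 (0.107 and 0.111). The median of the list was -0.46 with 16 of 21 negative, and 9 had no overlap in the lower direction, beside 12.8% of all genes. NRAP had too few counts to be tested.

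The list of titin's partners along the sarcomere held 20 genes, among them TTN-AS1, which is the antisense gene of TTN and not a partner. ANKRD2 and TTN-AS1 had too few counts to be tested. Of the other 18, 0 passed without the block, 2 had an unadjusted p under 0.05, and 1 passed with the block, beside 1.36%, 17.7% and 4.77% of all genes. Neither of the last 2 counts stands out from that background. The DESeq2 Wald test called 2, FHL1 and FHL2, both lower, beside 7.52% of all genes. The partner called with the block was FHL1, a LIM protein bound to the spring region of titin, with 261, 179 and 145 CPM against 85.0, 88.5 and 54.8 CPM (-1.36 ± 0.26, edgeR adjusted p 0.0610 and with the block 0.0131). FHL2 (-1.28 ± 0.38, 0.157 and 0.116) and ANKRD1 (-1.70 ± 0.76, 0.303 and 0.110) were not called in either edgeR fit. ANKRD1, a stretch-responsive partner of the spring region, had 2765, 2245 and 1718 CPM in RPMI plus B27 and 915, 1073 and 86.0 CPM in DMEM plus fatty acids, again with replicate 3 lowest. TRIM54, a muscle RING finger protein, had a positive log2 fold change of 0.43 ± 0.21 (0.327). The median of these partners was -0.16. Among 5 splicing regulators of muscle genes, 0 passed in either edgeR fit or with DESeq2 and 0 had an unadjusted p under 0.05, with a median of -0.05. RBM20, the main splicing regulator of titin, had 255 and 246 CPM (-0.05 ± 0.17, edgeR adjusted p 0.905) and RBM24 293 and 234 CPM (-0.33 ± 0.19, 0.414). PTBP1 and QKI had -0.28 ± 0.16 and -0.05 ± 0.21.

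**Figure D5:**
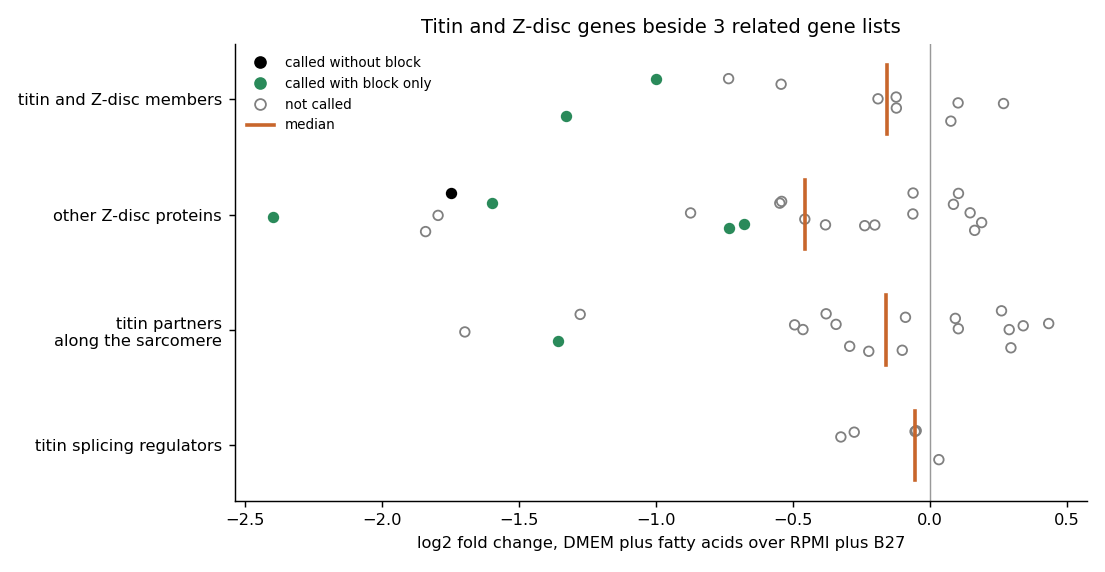
Log2 fold change (horizontal axis) of each tested gene of the 10 titin and Z-disc genes and of 3 related lists, with the median of each as a vertical bar. Filled black points were called without the block and green points only with it, and the medians run from -0.46 for the other Z-disc proteins to -0.05 for the splicing regulators.

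The genes whose pattern over the 6 libraries was most like that of TTN were ADCY9, ISOC1, TES, TTLL7 and IGF1R, with a root mean square difference of 0.081 to 0.11 log2 units after centring each gene, among 10025 genes of at least 10 CPM. Of the 9 other Z-disc genes FLNC was nearest to TTN, at 0.17 and rank 90, and LDB3 next at 0.22 and rank 349. For ACTN2 the nearest were C1orf198, SAMD4A, MCAM, LSMEM2 and RARA, at 0.10 to 0.19 log2 units. NEXN (0.28, rank 59) and CSRP3 (0.30, rank 80) were the nearest Z-disc genes to ACTN2, followed by TCAP (0.42, rank 429), and MYPN was the farthest from it, at 0.89 and rank 9090.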

How the data were processed

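STAR, HTSeq and hg38 are named, without roles, per the submitters' processing notes. The annotation and strand setting are not given in the sources used here. The authors deposited unnormalized counts by gene symbol. Gene rows held 84.4% to 87.2% of each file, and the remaining rows, which name no gene, were left out of library sizes and tests. Libraries held 23232324 to 31035389 gene counts.

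Counts were tested with edgeR 4.0.16 (quasi-likelihood test, TMM, filterByExpr with minimum count 10 and minimum total 15, 16107 of 38557 genes kept, Benjamini-Hochberg over these, threshold 0.05), with medium as the only term. Each SE was derived from the F statistic. CPM are scaled by TMM unless stated. Same-numbered libraries deviated together from the mean of their medium (r across genes 0.33, 0.49 and 0.39 for numbers 1 to 3, and -0.25 to -0.16 for other pairs), so the numbers, shared by the titles, were taken as pairs. Deviations from a mean of 3 libraries sum to 0, which makes the other pairs negative on average where same-numbered ones are positive. The negative values are therefore no separate evidence, and the pairing was checked on the same counts that the blocked fit tests. The fit with the block has 2 residual degrees of freedom in place of 4. No 2 libraries agreed within sampling noise (chi-square per degree of freedom at least 31.5). The labels call the replicates biological without saying what separates them, so p-values measure only the spread between these libraries. Shares and ratios used raw counts and two-sided exact permutation tests, adjusted over 3 shares and over 9 ratios. Of the shares, 1 is not reported here, nor is the list of paralogs. DESeq2 1.42.0, other scalings and filters, and leaving out libraries were alternatives. Exon lengths are from GENCODE v29. Genes were named as all members, up to 4 of the smallest p per related list, paralogs and antisense partners, and the 5 genes most like TTN and like ACTN2 (root mean square difference of log2 CPM plus 0.5). Other genes named for being called in a list, CAPN12, the cell type marker genes and the Z-disc genes nearest to TTN and ACTN2 lie outside this rule. They were picked with their values in view. The members and lists were chosen with earlier results of these data known. The first 250 bases of each RefSeq promoter window were searched for motifs.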

Additional observations from a re-analysis of the deposited data

How the results depend on the processing

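The number of genes called over all genes was 219 with medium alone, 769 with the replicate block, 1212 with the DESeq2 Wald test, 539 with no filter on low counts and 119 with at least 10 counts in every library. It was 868 and 802 with the block under total counts alone and DESeq2 size factors, and 3 to 109 with 1 library left out. In the blocked fits without pair 1, 2 or 3 it was 1887, 425 and 895. The share of lower calls was 78.5%, and 63.4% under total counts alone, which moved the median of all genes from 0.01 to 0.12. With the block, 71.5% of calls were lower, and 50.3% under total counts alone. Of the 10 genes 0 were called with medium alone, in each of the 6 fits without 1 library and under the other scalings and filters in edgeR, and 2 (ACTN2 and CSRP3) with the block, with the block under either other scaling, and by DESeq2. In the blocked fits without pair 1, 2 or 3 the number was 3, 2 and 1. These 5 blocked alternatives were added after seeing the data. The block changed no other call among the 10 genes, the shares or the ratios. Directions reversed only where the difference was small. They were LDB3 (-0.33 to 0.029 with 1 library left out, the latter without DMEM plus fatty acids replicate 3, and 0.045 in the blocked fit without pair 3), MYOZ2 (-0.048 to 0.29, the former without DMEM plus fatty acids replicate 1, and -0.13 in the blocked fit without pair 1), NEBL (-0.036 to 0.18, and -0.073, in the same fits) and FLNC (0.059 in the blocked fit without pair 3). The difference in the ACTN2 share of alpha-actinin counts, -0.16 points, ranged from -4.80 to 5.65 with 1 library left out, and was 0.64, 1.07 and 5.65 without RPMI plus B27 replicate 1 or 2 or DMEM plus fatty acids replicate 3. The log2 ratios to TTN reversed for LDB3 (-0.10 to 0.24 with 1 library left out, with -0.10 and -0.0053 without RPMI plus B27 replicate 1 or DMEM plus fatty acids replicate 2) and FLNC (-0.0065 to 0.22, the former without RPMI plus B27 replicate 1). The mean within-pair differences equal those of the means for shares and ratios, and their exact sign-flip p was 0.25 or more, the smallest 3 pairs allow. The cause of these changes was not tested. The CSRP3 share, the other ratios and the log2 fold changes of TTN, ACTN2, CSRP3, TCAP, NEXN and MYPN, kept their direction in every alternative run. Counting error is small at the depth of these genes, and the number of libraries limits the precision.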
